A study of Bos taurus with 4 samples.

Results

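The genes described here are those of the mTOR pathway and its 4E binding proteins, followed through probes of a bovine oligonucleotide array by the bovine symbol to which each probe's reference accession maps. Of 9 listed genes, 5 had a probe matched in this way. These were EIF4EBP1, RHEB, RICTOR, RPS6KB1 and RPTOR, written *eif4ebp1*, *rheb* and so on below, with 13 of the 43653 non-control probes. EIF4EBP2, MTOR, TSC1 and TSC2 had no matched probe and were not analysed here. Of all non-control probes 20161 could not be named, and whether some of them target these genes was not checked. RNA of the semitendinosus, a hind-limb muscle, came from 4 Hereford (HER) bulls, a beef breed, and 4 Holstein-Friesian (HF) bulls, a dairy breed, all aged 15 months and with no treatment named. Each of the 4 dual-colour Agilent arrays carried 1 bull of each breed, 1 in the dye Cy3 and 1 in Cy5, and the arrays lay on 1 slide.

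mTOR is a protein kinase that couples muscle protein synthesis to growth factors, amino acids and energy. It works in a pair of complexes, mTORC1 with the scaffold Raptor (*rptor*) and mTORC2 with Rictor (*rictor*), and mTORC1 is switched on by the GTPase Rheb (*rheb*), which the TSC complex holds back. Active mTORC1 phosphorylates the S6 kinase p70S6K (*rps6kb1*) and the protein 4E-BP1 (*eif4ebp1*), which in its unphosphorylated form binds the cap-binding factor eIF4E and blocks translation initiation. These are phosphorylation events, whereas the arrays measured mRNA.

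Of 13 member probes, 12 passed the filter on dim probes, which asked for a signal well above background in the same dye on all 4 arrays, as did 32608 probes in all. The 13th, the dimmer *rptor* probe, was well above background on 1 array in each dye and was not tested. Median spot signals were 129 to 160.5 in Cy5 and 77 to 138 in Cy3 over the arrays, no spot was saturated, and Pearson's r between the log ratios of any pair of arrays, taken over probes and so over values that are not independent, was 0.332 to 0.618. With 4 arrays, small differences cannot be resolved. All signed values below are log2(Cy5/Cy3) after normexp background correction and loess. By the dye labels Cy5 is HF and Cy3 is HER, and signs read in this way oppose those of the study's own tables. Those labels also describe the dyes as swapped, so no breed direction is drawn. Since all arrays had 1 dye orientation, a dye effect on a gene and a breed difference cannot be told apart. In whole muscle, fewer cells of a type and less RNA per cell cannot be told apart either.

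The gene encoding 4E-BP1 differed between the dyes on every array, and the other members did not pass the test. Of the 12 tested member probes 2 were called, that is, had a Benjamini-Hochberg adjusted p under 0.05 over all tested probes in limma, and both were those of *eif4ebp1*. Of all tested probes 3.31% were called, and 1.96% were called higher in Cy5. With each gene taken at its brightest tested probe, 1 of 5 members was called, beside 4.42% of 9426 genes, or 2.91% called higher in Cy5. The median log2 ratio of the 12 member probes was 0.02 and that of all tested probes 0.01. At an unadjusted p under 0.05, 5 of the 12 member probes passed, as did 8044 of all 32608.

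At the brighter *eif4ebp1* probe (A_73_P051026), normalized log2 levels in the Cy5 bulls of arrays 1 to 4 were 13.98, 13.51, 14.46 and 14.07. In the Cy3 bulls they were 12.69, 12.53, 12.75 and 12.79. The lowest Cy5 level thus lay above the highest Cy3 level, and the Cy5 bulls spread more widely (14.00 ± 0.39, SD, n = 4) than the Cy3 bulls (12.69 ± 0.11, SD, n = 4). The log2 ratios were 1.29, 0.98, 1.72 and 1.28. Their mean was 1.32 ± 0.30 (SD, n = 4), with a 95% confidence interval of 1.00 to 1.63, a 2.49-fold difference (adjusted p = 0.0214 in limma). Array 2 gave the smallest ratio and array 3 the largest, and all 4 were higher in Cy5. All Cy5 levels lay above all Cy3 levels for 9.42% of genes on the array, and the dyes did not overlap in either direction for 15.9%, beside 2 of the 5 members (*eif4ebp1* and *rictor*).

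The dimmer *eif4ebp1* probe (A_73_P118641) gave the same direction. Its log2 levels were 12.66, 12.17, 13.39 and 12.96 in the Cy5 bulls. In the Cy3 bulls they were 10.90, 10.99, 11.73 and 11.42. The groups again did not overlap, and array 3 held the highest level in both dyes. The log2 ratios of 1.76, 1.17, 1.65 and 1.55 had a mean of 1.53 ± 0.26 (SD, n = 4), a 2.90-fold difference (adjusted p = 0.0139 in limma). The brighter probe's ratio was smaller than that of the dimmer probe by 0.47, 0.19 and 0.27 on arrays 1, 2 and 4 and larger by 0.06 on array 3, a mean difference of -0.22 ± 0.22 (SD, n = 4; exact two-sided sign-flip permutation p = 0.25, where 0.125 is the smallest that 4 arrays allow). Both probes answer to 1 transcript accession, and they share the 4 arrays, so they are not separate replicates.

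**Figure D1:**
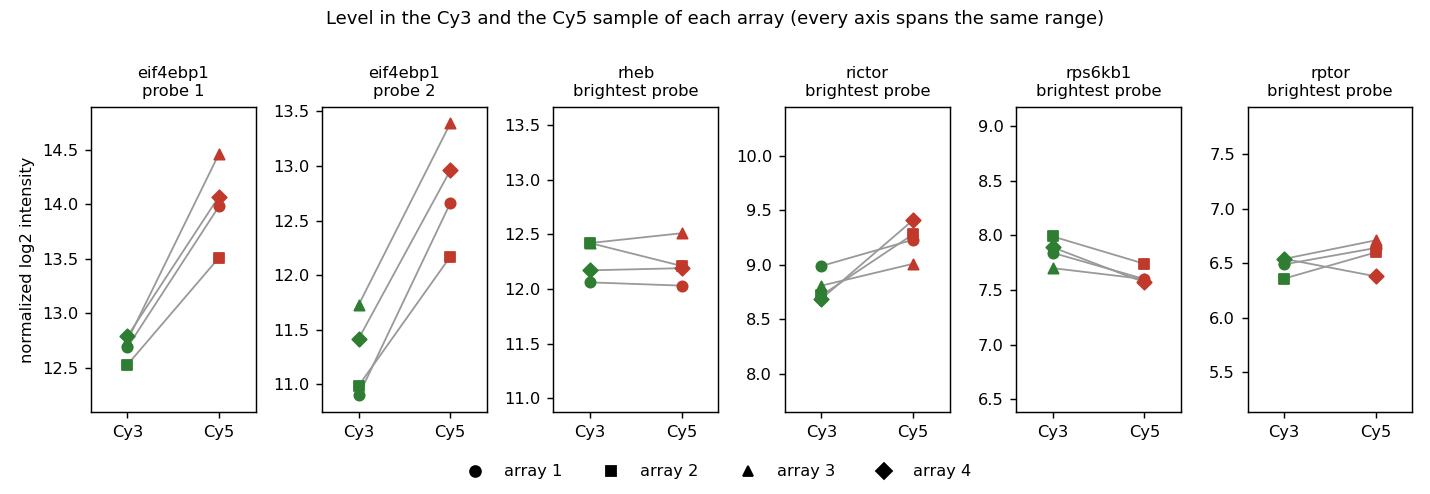
Normalized log2 intensity (vertical axis, the same span in every panel) in the Cy3 and the Cy5 bull of each array, joined by a line, for both *eif4ebp1* probes and the brightest probe of each other member. Both *eif4ebp1* panels rise on all 4 arrays with no overlap between dyes, the *rictor* panel also rises, and the *rheb* lines are nearly flat.

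Few probes of like brightness had as high a positive ratio, and negative ratios of like size were not counted. Within 0.5 log2 units of the average intensity of the brighter *eif4ebp1* probe lay 712 tested probes, 90% of them with ratios from -1.19 to 0.52, and 4 were above its 1.32. Of the 1332 probes near the dimmer one, 7 were above its 1.53. Before loess the brighter probe had log2 ratios of 2.88, 2.90, 2.79 and 1.98, while the medians of all spots on arrays 1 to 4 were 0.65, 0.91, 0.49 and 0.20. The *eif4ebp1* ratio was thus larger before loess than after it on every array. Most spots were far dimmer than this probe. The brighter *rheb* probe, nearer to it in brightness, stood at 1.46, 1.70, 1.14 and 0.61 before loess. With median centring of the arrays in place of loess, *eif4ebp1* stood at 1.84 (over the tested probes) or 2.07 (over all non-control probes). The call of the brighter probe was lost without any 1 array, with adjusted p from 0.0569 to 0.075 in limma and ratios from 1.18 to 1.43, and the dimmer probe kept its call without array 1 or 2 and lost it without array 3 (0.0597) or array 4 (0.0594). The methods' t-test after adjustment did not call either probe (adjusted p = 0.172 and 0.169).

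Rheb, the direct activator of mTORC1, did not differ detectably. At the brighter *rheb* probe the Cy5 levels were 12.03, 12.21, 12.51 and 12.19 and the Cy3 levels 12.06, 12.42, 12.42 and 12.17. The groups overlapped, and 2 of 4 arrays were higher in Cy5. The mean log2 ratio was -0.03 ± 0.13 (SD, n = 4), with an interval of -0.24 to 0.17 (adjusted p = 0.853 in limma), and the second probe was at 0.03 ± 0.17 (SD, n = 4). This depended on loess, since with median centring *rheb* turned to 0.43 (over the tested probes) or 0.66 (over all non-control probes) and was called. These centrings also called 12279 and 10722 of all 32608 tested probes.

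*Rptor*, the mTORC1 scaffold that recruits 4E-BP1 and S6 kinase, was measured by a dim probe. Its log2 ratios were 0.14, 0.23, 0.17 and -0.16, higher in Cy5 on 3 of 4 arrays. The mean was 0.10 ± 0.18 (SD, n = 4), with an interval of -0.14 to 0.33 (adjusted p = 0.589 in limma). It turned to -0.33 or -0.09 with median centring. With plain subtraction of the background it was at 0.33, and in the scanner-processed log ratios at 0.32, not called in either. The Cy3 signal was well above background on 3 of 4 arrays.

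*Rps6kb1*, the S6 kinase gene, was lower in Cy5 on every array at its brighter probe without passing the test. The log2 ratios were -0.24, -0.25, -0.10 and -0.32, with a mean of -0.23 ± 0.09 (SD, n = 4; interval -0.42 to -0.03, adjusted p = 0.149 in limma). The levels overlapped, because the Cy5 bull of array 2 (7.74) lay above the Cy3 bull of array 3 (7.70). The second probe had the same sign on 3 of 4 arrays, at -0.17 ± 0.18 (SD, n = 4). Both probes were dim. For the brighter probe, plain subtraction of the background gave -0.33 and the scanner-processed log ratios -0.37, not called in either, while centring over all probes gave 0.05.

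The 5 probes for *rictor*, the scaffold of mTORC2, did not run together. At the brightest (A_73_107154) the Cy5 levels of 9.23, 9.28, 9.01 and 9.41 lay above all Cy3 levels of 8.99, 8.72, 8.81 and 8.69. The log2 ratios were 0.24, 0.56, 0.19 and 0.72, higher in Cy5 on 4 of 4 arrays, with a mean of 0.43 ± 0.26 (SD, n = 4; interval 0.14 to 0.71, adjusted p = 0.0933 in limma). It passed the methods' criterion of a fold change of 1.3 or more at an unadjusted p no higher than 0.05, as did 17.8% of genes, and the separate-channel fit called it (adjusted p = 0.0344). The third probe in brightness (A_73_104822) ran the other way on 4 of 4 arrays, at -0.48, -0.35, -0.05 and -0.71 (-0.40 ± 0.28, SD, n = 4; adjusted p = 0.118 in limma). The remaining probes were at 0.16 ± 0.16, 0.01 ± 0.12 and -0.12 ± 0.08 (SD, n = 4 each), none of them called.

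The brightest *rictor* probe lay above the third by 0.71, 0.91, 0.24 and 1.43 on arrays 1 to 4, a mean of 0.82 ± 0.49 (SD, n = 4). The exact two-sided sign-flip permutation p was 0.125, the smallest that 4 arrays allow, and 0.167 after adjustment over the 4 pairs compared. The widest gap was on array 4 and the narrowest on array 3. The mean over all 5 probes was 0.01, so the sign given for *rictor* rests on the probe taken. All 5 answer to 1 transcript accession, and whether they measure different transcripts was not tested.

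**Figure D2:**
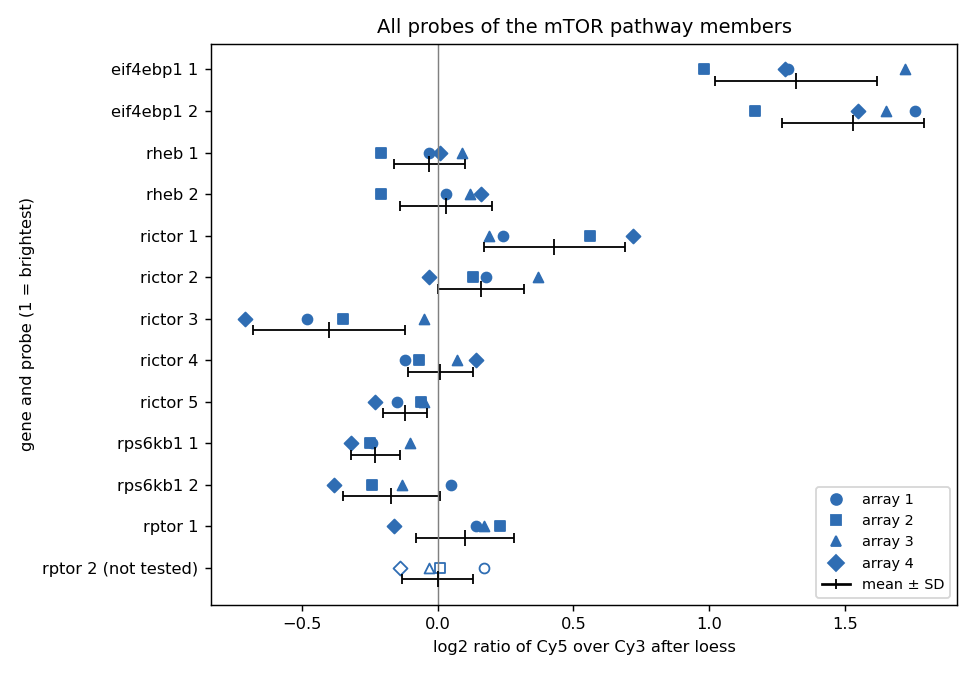
Horizontal axis, log2(Cy5/Cy3) after loess for all 13 member probes (vertical axis, numbered from the brightest of each gene), with 1 symbol per array and the mean ± SD in black; open symbols are the untested *rptor* probe. Both *eif4ebp1* probes lie at 0.98 or above on every array, *rictor* probes 1 and 3 lie on opposite sides of 0, and the *rheb* probes cross 0.

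Set against the other members on the same array, the *eif4ebp1* ratio was the larger on 4 of 4 arrays in each of 4 comparisons. Since *eif4ebp1* is the member with the highest mean ratio, this order was largely fixed by the choice of gene and is a description. The mean gap was 1.54 ± 0.24 to *rps6kb1*, 1.35 ± 0.19 to *rheb*, 1.22 ± 0.36 to *rptor* and 0.89 ± 0.50 to *rictor* (SD, n = 4 each). Each gap had an exact two-sided sign-flip permutation p of 0.125, before and after adjustment over the 4 comparisons, the smallest this design can give. Of the 12 member probes, 6 kept 1 sign on all arrays, beside 32.7% of all tested probes.

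**Figure D3:**
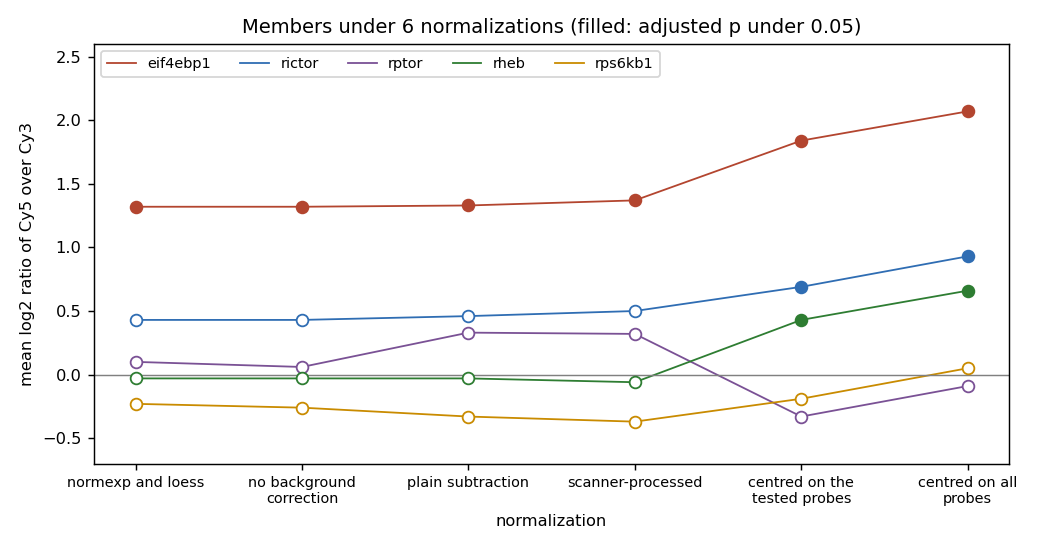
Mean log2 ratio of Cy5 over Cy3 on 4 arrays (vertical axis) for the brightest probe of each member under 6 normalizations (horizontal axis), filled where the adjusted p in limma was under 0.05. *Eif4ebp1* lies between 1.32 and 2.07 and is filled throughout, *rheb* and *rictor* are filled only where arrays were centred on a median in place of loess, and *rptor* changes sign there.

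The genes with log2 ratios most like those of *eif4ebp1* over the 4 arrays, by Euclidean distance among named genes at their brightest tested probe, were *ass1* (distance 0.31), *fdft1* (0.39), *dusp26* (0.46), *c1qtnf9* (0.46) and *ctsf* (0.51). They encode argininosuccinate synthase of the urea cycle and arginine synthesis, squalene synthase of cholesterol synthesis, a phosphatase, a secreted relative of adiponectin and the lysosomal protease cathepsin F. On arrays 1 to 4 *ass1* was at 1.43, 0.99, 1.95 and 1.42, so that it too was smallest on array 2 and largest on array 3. The other genes did not share that order: *dusp26* (0.85) and *ctsf* (0.89) were smallest on array 1, and *fdft1* (1.52) and *c1qtnf9* (1.67) were largest there. Since all were picked by closeness to *eif4ebp1*, a like order is partly built in. This is a description over 4 arrays that share their bulls, with no test.

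Around the members, 90 further genes of the pathway were listed in 11 roles, of which 68 had a matched probe and 66 were tested. In limma 3 were called higher in Cy5, 1 was called lower and 62 did not pass, beside 2.91% and 1.52% of all genes. The median log2 ratio of the 66 was -0.01, against 0.02 over all 9426 genes, and 26 kept 1 sign on all arrays, beside 34.2% of genes. Each of the 4 calls was lost whichever array was left out, and in the methods' t-test after adjustment. The 4 called genes were *grb10*, *sgk1*, *map1lc3b* and *slc3a2*.

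**Figure D4:**
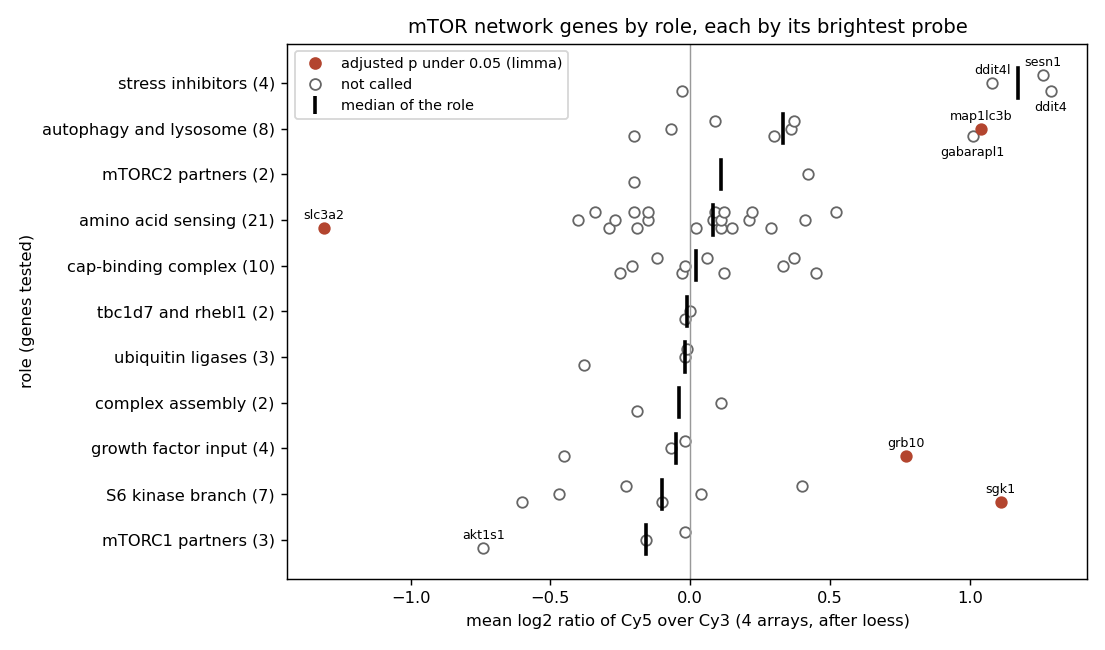
Horizontal axis, mean log2(Cy5/Cy3) of the 66 tested pathway genes by role (vertical axis, with the number tested), filled where the adjusted p in limma was under 0.05, with the median of each role as a black bar. The medians of 9 roles lie between -0.16 and 0.11, those of the stress inhibitors and the autophagy targets at 1.17 and 0.33, and the 4 called genes belong to 4 roles.

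Among stress inhibitors, which hold mTORC1 back when energy or oxygen is short, 4 of 5 listed genes were tested and none was called, although 3 of the 4 had ratios above 1. *Ddit4* (encoding REDD1) had log2 ratios of 1.95, 0.23, 1.29 and 1.70, with a mean of 1.29 ± 0.76 (SD, n = 4; adjusted p = 0.0619 in limma). *Sesn1*, a sestrin gene, had 1.45, 1.77, 1.65 and 0.16, with a mean of 1.26 ± 0.75 (SD, n = 4; adjusted p = 0.0636), but its dimmer probe was at 0.56 ± 0.53 (SD, n = 4; adjusted p = 0.162) and the mean over both probes at 0.91. At the brighter probe each was higher in Cy5 on 4 of 4 arrays with no overlap of levels, and each had 1 array near 0, array 2 for *ddit4* and array 4 for *sesn1*. *Ddit4l* (REDD2), named after its values were seen, had 1.05, 1.46, 1.69 and 0.12 (1.08 ± 0.69, SD, n = 4; adjusted p = 0.0738), and its dimmer probe, at 0.48 ± 0.14 (SD, n = 4), was called (adjusted p = 0.0492). *Sesn2*, likewise named afterwards, was at -0.03 ± 0.20 (SD, n = 4), and its Cy3 signal was well above background on 2 of 4 arrays. An intensity trend with a robust prior called *ddit4* and *sesn1* (adjusted p = 0.0477 and 0.0484), as did the separate-channel fit (0.027 and 0.0188).

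Of 4 tested growth factor input genes, *grb10* was called. It encodes an adaptor that binds the insulin receptor and is itself an mTORC1 substrate that damps insulin signalling. Its log2 ratios were 0.73, 0.63, 0.80 and 0.91, with a mean of 0.77 ± 0.12 (SD, n = 4; 1.70-fold, adjusted p = 0.0256 in limma), and no levels overlapped. A second probe was at 0.44 ± 0.21 (SD, n = 4) and was not called (adjusted p = 0.0732). *Pik3ca*, the catalytic subunit of phosphoinositide 3-kinase, was at -0.45 ± 0.34, lower in Cy5 on 4 of 4 arrays (adjusted p = 0.122), and its regulatory partner *pik3r1* at -0.07 ± 0.39 (SD, n = 4 both; adjusted p = 0.814), while centring over all probes gave 0.06 and 0.29 and centring over the tested probes -0.17 and 0.05.

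Of the mTORC1 partners 3 were tested and none was called. *Akt1s1* encodes PRAS40, an inhibitor bound to Raptor, and was at -0.84, -1.16, -0.40 and -0.55. Its mean was -0.74 ± 0.34 (SD, n = 4; adjusted p = 0.052 in limma), and its second probe, at -0.70 ± 0.21 (SD, n = 4), was called (adjusted p = 0.0369). The brighter probe was called without background correction (0.049), under the stricter filter (0.0467), with the trend and robust prior (0.0439) and in the separate-channel fit (0.018), while median centring moved it to -0.31 or -0.07. *Deptor*, another inhibitor of mTOR, was at -0.16 ± 0.14 at a dim probe (SD, n = 4; adjusted p = 0.317), and at -0.37 with plain subtraction of the background, again not called. Of the mTORC2 partners, *prr5* (Protor-1) was at 0.42 ± 0.12, higher in Cy5 on 4 of 4 arrays (adjusted p = 0.0548), and *mapkap1* (SIN1) at -0.20 ± 0.33 (SD, n = 4 both; adjusted p = 0.421), which turned to 0.13 or 0.37 with median centring.

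The S6 kinase branch held 1 called gene of 7, and that gene, *sgk1*, is known as a kinase activated by mTORC2. *Sgk1* had log2 ratios of 1.35, 1.10, 0.47 and 1.52, with a mean of 1.11 ± 0.46 (SD, n = 4; adjusted p = 0.0419 in limma), and levels did not overlap. A second probe at 1.47 was also called (adjusted p = 0.0353) and the remaining, dim probe at 0.38 was not. The call ended when dim probes were also tested (0.0511). *Poldip3* (SKAR), a partner of S6 kinase, was at 0.40 ± 0.20 and *rps6ka1*, a kinase of the RSK family, at -0.60 ± 0.46 (SD, n = 4 both; adjusted p = 0.0828 and 0.112). The ribosomal protein gene *rps6*, whose product S6 kinase phosphorylates, was at -0.10 ± 0.24 (SD, n = 4; adjusted p = 0.627), and its 7 probes ranged from -0.21 to 0.05. *Rps6* was chosen after its values were seen and turned to 0.50 or 0.73 with median centring.

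In the cap-binding complex, which 4E-BP1 keeps from assembling, 10 of 15 listed genes were tested and none was called. *Eif4h*, a helper of the helicase eIF4A, was at 0.45 ± 0.15 and *pdcd4*, an inhibitor of that helicase, at 0.37 ± 0.14 (SD, n = 4 both; adjusted p = 0.0538 and 0.0742 in limma), each higher in Cy5 on 4 of 4 arrays. *Eif4e*, the cap-binding protein that 4E-BP1 sequesters, had log2 ratios of 0.04, -0.07, -0.09 and -0.36, with a mean of -0.12 ± 0.17 (SD, n = 4; interval -0.35 to 0.11, adjusted p = 0.488). *Eif4e2*, its homologue, was at -0.25 ± 0.10 at its brightest probe, lower in Cy5 on 4 of 4 arrays (adjusted p = 0.128). The remaining *eif4e2* probes were at -0.22 ± 0.20 and 0.03 ± 0.12 (SD, n = 4 each). The brightest was itself dim, and the scanner-processed log ratios put it at -0.46, not called. *Eif4e* and *eif4e2* were named after their values were seen, and with median centring *eif4e* turned to 0.26 or 0.49 and, over all probes, *eif4e2* to 0.03. The median of the 10 genes was 0.02.

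**Figure D5:**
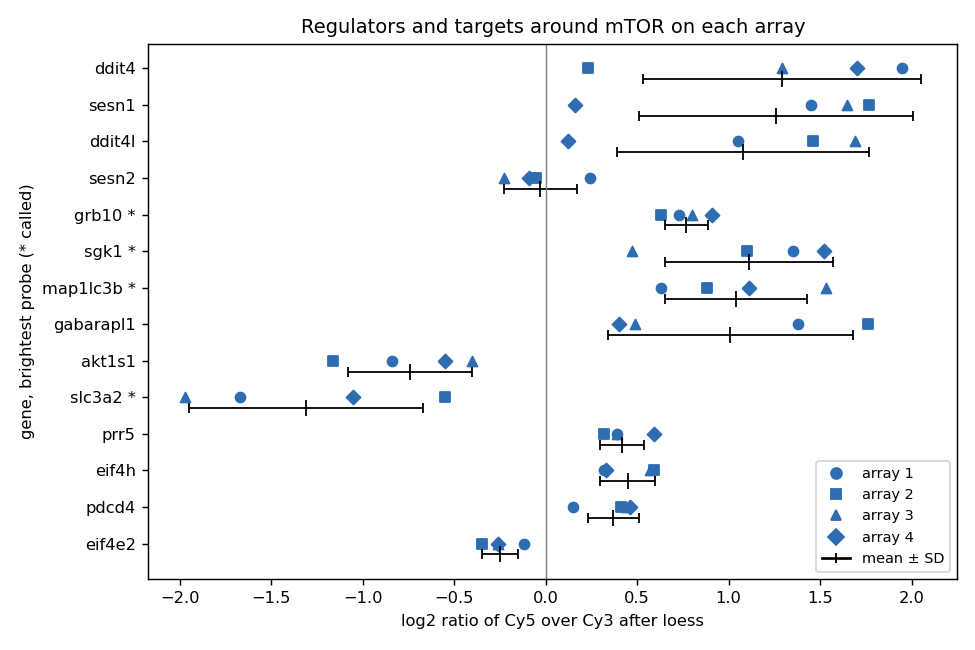
Horizontal axis, log2(Cy5/Cy3) after loess of 14 pathway genes at their brightest probe (vertical axis, with an asterisk where called), with 1 symbol per array and the mean ± SD in black. *Grb10*, *sgk1* and *map1lc3b* lie above 0 and *slc3a2* below 0 on all 4 arrays, while *ddit4* has array 2, and *sesn1* and *ddit4l* have array 4, near 0.

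Autophagy genes, which mTORC1 restrains directly or through transcription, had a median of 0.33 over 8 tested genes, and 1 was called. *Map1lc3b*, encoding the autophagosome protein LC3B, had log2 ratios of 0.63, 0.88, 1.53 and 1.11 (1.04 ± 0.39, SD, n = 4; adjusted p = 0.0377 in limma), and the mean over its probes, 0.80, was not called (0.0555). Its relative *gabarapl1* was at 1.38, 1.76, 0.49 and 0.40 (1.01 ± 0.67, SD, n = 4; adjusted p = 0.0789), with 3 probes from 1.00 to 1.03. *Atg13*, a subunit of the ULK1 kinase complex, was at 0.36 ± 0.36 (SD, n = 4; adjusted p = 0.211). The list did not run 1 way. Of its other genes, named after their values were seen, *mitf* was at -0.20 ± 0.22 and *sqstm1* at -0.07 ± 0.67. *Rb1cc1* was at 0.09 ± 0.20, *atg101* at 0.30 ± 0.32 and *tfe3* at 0.37 ± 0.46 (SD, n = 4 each), none of them called.

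Amino acid sensing was the longest list, with 21 of 28 genes tested and *slc3a2* alone called, lower in Cy5. It encodes the heavy chain shared by several amino acid transporters, CD98. Its log2 ratios were -1.67, -0.55, -1.97 and -1.05, with a mean of -1.31 ± 0.64 (SD, n = 4; adjusted p = 0.0492 in limma), and the levels overlapped. A second probe was at -0.86 ± 0.44 (adjusted p = 0.0558), and the call also ended when dim probes were tested (0.0626), over the mean of its probes (0.0534) and with centring over all probes (-0.65, 0.0881). Its light chain *slc7a5*, named after its values were seen, was at 0.11 ± 0.09 (SD, n = 4; adjusted p = 0.464). That probe was dim, with Cy3 spot signals of 59, 58, 71.5 and 92 on arrays 1 to 4, which limits what its ratio can show. *Rragc*, a Rag GTPase that brings mTORC1 to the lysosome, was at 0.52 ± 0.27 (adjusted p = 0.07) and the arginine sensor *castor1* at -0.40 ± 0.24 (SD, n = 4 both; adjusted p = 0.0999), each of 1 sign on all arrays, though *castor1* moved to -0.08 with centring over the tested probes and turned to 0.16 with centring over all probes.

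The smaller roles held no call. The ubiquitin ligase scaffold *cul3*, which with KLHL25 targets 4E-BP1, was at -0.38 ± 0.10, lower in Cy5 on 4 of 4 arrays with no overlap of levels (adjusted p = 0.0594 in limma), though centring over all probes gave 0.30, and the ligase *huwe1* was at -0.02 ± 0.19 (adjusted p = 0.919). The kinase assembly factors *tti1* and *tti2* were at 0.11 ± 0.15 and -0.19 ± 0.74 (adjusted p = 0.5 and 0.721). *Tbc1d7*, the third subunit of the TSC complex, was at 0.00 ± 0.22 and the Rheb relative *rhebl1* at -0.02 ± 0.08 (adjusted p = 0.993 and 0.928; SD, n = 4 throughout).

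The samples read as skeletal muscle. Of 8 listed muscle markers 7 had a matched probe, and all 7 were well above background in all 8 bulls. Their median log2 ratio was 0.36 and none was called. The 7 did not run 1 way: *des* was at 0.71, *myh2* 0.68, *myoz1* 0.50, *ckm* 0.36, *myh7* 0.21, *acta1* 0.13 and *tnnt3* -0.69. Their summed normalized level was 1425368 to 1610554 in the Cy5 bulls and 1166435 to 1295740 in the Cy3 bulls, without overlap. A sum of levels is set mostly by its brightest genes. Of single genes, 15.9% had no overlap between the dyes in either direction. All 5 fibroblast markers were measured. Collagens *col1a1* (-2.05) and *col3a1* (-1.68) were called lower in Cy5, *lum* was at -0.77 and not called, and *dcn* and *pdgfra* were at 0.42 and 0.49 (adjusted p = 0.24 and 0.226 in limma), so the list did not run 1 way. Its median was -0.77, and its summed level of 29282 to 50185 in Cy5 overlapped that of 43112 to 83638 in Cy3. None of 5 macrophage markers was called (median 0.50). *Aif1* was at 0.74 ± 0.72, *csf1r* at 0.68 ± 0.71 and *cd163* at 0.50 ± 0.17 (SD, n = 4 each), while *cd68* and *cd14* were at 0.08 and -0.04. The summed level of the 5 was 2142 to 3318 in Cy5 against 1674 to 2063 in Cy3, again without overlap. Adipocyte, endothelial, lymphocyte, blood and Schwann cell lists held no call, with medians from -0.47 to 0.19, and of 4 smooth muscle markers (median -0.05) *cnn1* was called lower (-0.79), with *myh11* at 0.40, *acta2* at 0.05 and *tagln* at -0.15. The part of these cell types in the ratios of *eif4ebp1* and the other genes was not tested.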

How the data were processed

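The deposited intensity values are scanner output: per the file headers, Feature Extraction 10.7.3.1 read the median signal and median local background of each spot, on an array design annotated against HGSC Btau_3.1. The log10 ratios of the deposited series table, Cy5 over Cy3, equal those of the scanner files (largest difference 0, median 0). Probes were named through the accession of the bovine RefSeq table of assembly ARS-UCD2.0 (23492 probes named, 20161 not), and because the builds differ no coordinates are given. The files hold no authors' comparisons, and 0 columns of sample values were left unused.

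Median signals replaced the planned mean signals, which the files do not hold. Background was corrected by normexp (offset 50), loess was run within each array (control spots weighted 0), between 1 and 9 spots per array with an outlier mark were dropped, and repeated spots of a probe were averaged. Probes well above background in the same dye on all 4 arrays, with at least 3 values, were tested against 0 (two-sided) with limma 3.58.1 in R 4.3.3 (with statmod 1.5.0 and version 1.17.8 of data.table). Calls had a Benjamini-Hochberg adjusted p under 0.05 over all tested probes. Each gene is given by its brightest tested probe. The procedure was tested on simulated data.

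The rule for named genes took every member, every called network gene and up to 2 further genes per role with the smallest p, and the 5 genes most like *eif4ebp1*. Members and lists were chosen with earlier results of these data known. Alternatives covered background correction, scanner-processed log ratios, the series table, median centring, dim-probe filters, the prior, the methods' t-test and criterion, a separate-channel fit, the mean over a gene's probes and leaving out each array. The labels call the 4 arrays biological replicates.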

Additional observations from a re-analysis of the deposited data

Results flagged for a closer look

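In 44 sets of 4 array values checked for a sample far from the others, 2 stood out, and chance alone gives about 1 in 20. For *pdcd4*, array 1 (log2 ratio 0.15) lay apart from the others (0.41 to 0.46), the gap taking a share of 0.84 of the range. For *rps6ka1*, array 4 (0.09) lay apart from the others (-0.88 to -0.76), with a share of 0.88.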

How the results depend on the processing

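The test of log ratios against 0 is itself paired, since each array holds 1 bull of each breed, and there was no further replicate block to set. The number of arrays limits every call, and signal over background limits the dim *rptor*, *rictor*, *rps6kb1*, *rhebl1*, *sesn2*, *slc7a5*, *eif4e2* and *deptor* probes. The causes of the changes below were not tested.

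Leaving out 1 array gave 5 to 115 called probes in all against 1078, 0 to 1 of 12 member probes, 0 of 5 member genes and 0 of 66 network genes, and *eif4ebp1* ranged from 1.18 to 1.43 uncalled. *Rheb* ranged from -0.07 to 0.03, its dimmer probe from -0.02 to 0.11, the fourth *rictor* probe from -0.04 to 0.05, *rhebl1* from -0.04 to 0.01, *tbc1d7* from -0.08 to 0.07, *huwe1* from -0.08 to 0.03, *tti2* from -0.52 to 0.01, *sesn2* from -0.12 to 0.03 and *pik3r1* from -0.18 to 0.11.

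Centring over all non-control probes left a median of 0.24 over the tested probes and called 10722 probes (93.4% higher in Cy5, against 59.3%), 40 network genes, 3 member genes and 5 member probes. *Rictor* was then at 0.93, *rheb* at 0.66, *rps6kb1* at 0.05 (second probe 0.02), *rptor* at -0.09, the fourth *rictor* probe at -0.05, *castor1* at 0.16, *cul3* at 0.30, *eif4e* at 0.49, *eif4e2* at 0.03, *huwe1* at 0.64, *mapkap1* at 0.37, *pik3ca* at 0.06, *pik3r1* at 0.29, *rps6* at 0.73, *slc7a5* at -0.06, *tbc1d7* at 0.56 and *tti2* at 0.13. Centring over the tested probes called 12279 probes, 34 network genes, 3 member genes and 7 member probes, with *rictor* at 0.69, *rheb* at 0.43, *rptor* at -0.33, the fourth *rictor* probe at -0.28, *cul3* at 0.06, *eif4e* at 0.26, *huwe1* at 0.40, *mapkap1* at 0.13, *pik3r1* at 0.05, *rps6* at 0.50, *slc7a5* at -0.29 and *tbc1d7* at 0.33.

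The methods' t-test after adjustment called 0 probes, 0 network genes, 0 member genes and 0 member probes (*eif4ebp1* at 1.32, adjusted p = 0.172); at the methods' criterion it called 2887 probes, 12 network genes and 2 member genes. With limma's p that criterion called 4707 probes, 17 network genes, 2 member genes (*rictor* at 0.43) and 4 member probes. The separate-channel fit called 3210 probes, 12 network genes and 2 member genes (*rictor* at 0.43), the trend and robust prior 1665 probes and 7 network genes, and no filter on dim probes 2 network genes. *Rhebl1* was at 0.04 without background correction and at 0.53 in the scanner-processed log ratios and the series table, *tbc1d7* at 0.00 without background correction and 0.04 as a mean over probes, *huwe1* at 0.01 as that mean, and with plain subtraction *sesn2* was at 0.12 and the fourth *rictor* probe at 0.00. Over the named network genes and the members' further probes, 555 values kept direction and side of the threshold, 65 passed it, 28 lost it and 44 changed sign. These values are not all separate. The scanner-processed log ratios and the series table are the same values counted as separate settings, and for genes with 1 tested probe the mean over probes repeats the main ratio.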
